A study of Mus musculus with 6 samples.

Results

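The genes described here are those of the pre-B-cell receptor other than its heavy chain, namely Igll1 (lambda5), Vpreb1 and Vpreb2 of the surrogate light chain and the signalling pair Cd79a and Cd79b, together with Vpreb3, a relative of the VpreB genes. They were chosen by name, and a gene was measured where the array annotation gave a probe set that symbol alone. This held for 4 of the 6 genes, Igll1, Vpreb3, Cd79a and Cd79b, each with 1 probe set among 17689 such probe sets. Vpreb1 and Vpreb2 have 1 probe set between them, so its signal cannot be assigned to either gene, and it is given apart from the other 4.

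Pre-B cells had been sorted as B220+IgM-CD43- cells from bone marrow of mice at 9 months of age, with expression read on Affymetrix arrays. The Mef2c-deficient group (Vav-Cre Mef2cfl/fl) and the control group held 3 arrays each. Vav-Cre is active throughout blood-forming cells, so Mef2c, a MADS-box transcription factor gene, was deleted before the B lineage arose. The study drew its controls from Mef2cfl/fl, Mef2cfl/+ and Vav-Cre Mef2cfl/+ mice of the same age, and the labels do not say which of these, or which animals, gave an array. The study calls the samples independent, so p-values measure the spread between these samples, which may be partly technical.

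A developing B cell first rearranges its immunoglobulin heavy chain, while no light chain exists to pair with it. The surrogate light chain, built from a lambda5 and a VpreB protein, takes the place of the light chain. Together with the mu heavy chain it reaches the surface, and the Ig-alpha and Ig-beta proteins encoded by Cd79a and Cd79b carry the signal inward. In the mouse the surrogate light chain genes are active in pro-B and large dividing pre-B cells and are shut off in small pre-B cells, while Cd79a and Cd79b stay on in B cells. Vpreb3 encodes a VpreB-like protein of B-cell precursors and is not a part of the receptor at the surface.

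In the GRCm38.p6 assembly, Igll1 (chr16:16860671-16863985) and Vpreb1 (chr16:16868401-16869255) lie next to each other, 4.42 kb apart, and Vpreb2 (chr16:17979445-17981274) lies 1110 kb from Vpreb1. Vpreb3 is at chr10:75943024-75949657, Cd79a at chr7:24897497-24901858 and Cd79b at chr11:106311341-106314562. Promoter windows from RefSeq, 250 bases before to 50 after the annotated start, are shown for Igll1, whose signal split the arrays, and for Cd79a, whose signal did not. Capitals mark matches to CANNTG, the E-box bound by E proteins such as the Tcf3 product.
Igll1 (chr16:16863936-16864235, minus strand): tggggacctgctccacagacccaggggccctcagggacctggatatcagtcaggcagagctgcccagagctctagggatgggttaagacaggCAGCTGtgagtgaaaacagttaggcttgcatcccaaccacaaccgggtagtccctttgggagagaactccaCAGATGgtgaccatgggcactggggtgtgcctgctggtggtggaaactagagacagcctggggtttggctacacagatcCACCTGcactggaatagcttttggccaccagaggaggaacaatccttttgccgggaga
Cd79a (chr7:24897247-24897546, plus strand): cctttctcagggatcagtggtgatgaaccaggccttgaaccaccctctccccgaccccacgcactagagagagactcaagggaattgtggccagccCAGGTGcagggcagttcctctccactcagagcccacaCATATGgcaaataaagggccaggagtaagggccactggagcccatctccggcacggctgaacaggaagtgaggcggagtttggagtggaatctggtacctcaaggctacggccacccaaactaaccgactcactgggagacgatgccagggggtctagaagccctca

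Igll1 had 3 E-box matches and Cd79a 2, read on both strands. Vpreb1, Vpreb2 and Vpreb3 had 1, 2 and 5. The windows of Vpreb2 (chr16:17980315-17980614) and Vpreb3 (chr10:75948050-75948349) lie inside the gene spans given above. Their matches are therefore not at the outer starts of those spans. Such a match is common: 72.3% of 32851 windows of that length held at least 1. CAGGTG, a narrower form, was present once each in the windows of Igll1, Vpreb1, Vpreb2 and Cd79a, and in 20.2% of all windows. The octamer ATTTGCAT was found only in the Vpreb3 window among the 5 member windows, and in 1.74% of all windows. A simplified form of the MEF2 site, CTA and TAG with any 4 bases between, was in none of the 5 windows and in 3.69% of all. Its absence does not show that a MEF2 site is absent. The EBF palindrome, TCCC and GGGA with 2 bases between, was in none of them and in 0.904% of all. These are matches of letters alone. Cd79b was not searched.

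The Vpreb1 and Vpreb2 windows hold a stretch of 156 bases that differed at 3 positions (98.1% identity). It was found by sliding the windows along each other for the highest identity. The stretch ends the Vpreb1 window and opens the Vpreb2 window, so the windows were not aligned on their starts. The bases read by the shared probe set were not examined. Capitals mark the bases that differ.
Vpreb1 (chr16:16869206-16869361, minus strand): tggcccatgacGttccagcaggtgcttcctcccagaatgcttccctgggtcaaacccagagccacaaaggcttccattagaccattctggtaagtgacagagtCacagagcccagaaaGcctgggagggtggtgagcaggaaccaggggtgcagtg
Vpreb2 (chr16:17980315-17980470, plus strand): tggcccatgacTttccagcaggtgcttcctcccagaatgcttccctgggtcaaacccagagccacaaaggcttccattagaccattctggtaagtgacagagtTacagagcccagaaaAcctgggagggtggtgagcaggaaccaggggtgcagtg

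The deposited values are intensities on a linear scale, and log2 values of them are given throughout. The base used to leave the log scale is not stated, and the range of the values makes e the likelier. With e, every difference shrinks to 0.693 of what is printed, in log2, at the same direction and p-value. Standard errors and intervals shrink likewise. Between genes the levels are not comparable, since each probe set has its own response. Median deposited values lay between 236 and 285 per array. The deleted gene gives no check of the labels, as Mef2c was not analysed here. Of 16 listed genes of pre-B cells, 15 were measured above the filter on low values, among them Rag1, Il7r, Pax5 and Blnk. Mef2c-deficient replicate 3 stood apart. Its genes deviated from their group mean with an SD of 0.788, against 0.289 to 0.583 in the other 5 arrays, and its markers of other cell types were high, so the members and the main gene lists are also given without it, an alternative chosen for the lists after the data were seen.

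Igll1, which encodes the lambda5 protein, was low in 2 of the 3 Mef2c-deficient arrays and within the control range in the third. Its log2 values were 12.84, 13.11 and 15.38 in Mef2c-deficient replicates 1 to 3, against 14.64, 15.82 and 14.14 in control replicates 1 to 3. Replicates 1 and 2 of the Mef2c-deficient group lay below every control array, while replicate 3 lay above 2 of the 3 control arrays, so the groups overlapped. The means were 13.78 ± 1.40 in Mef2c-deficient and 14.86 ± 0.86 in control cells (SD, n = 3 each). Their difference in log2 was -1.09 (SE 0.74, 95% interval -2.81 to 0.63), with a limma adjusted p of 0.331. As deposited this is a 2.13-fold difference, or 1.69-fold if the values are powers of e. In sorted samples such as these, fewer cells with the transcript and less of it per cell cannot be told apart.

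The Igll1 difference rested on single arrays. Without Mef2c-deficient replicate 3 it was -1.89 (SE 0.50), with an unadjusted limma p of 0.00632 and an adjusted p of 0.0755. It was -0.62 without Mef2c-deficient replicate 1 (limma adjusted p = 0.599) and -0.61 without control replicate 2 (limma adjusted p = 0.607). A fit with array weights put the difference at -1.47, with an unadjusted limma p of 0.0277 and an adjusted p of 0.106. It gave Mef2c-deficient replicate 3 the lowest weight (0.248) and control replicate 1 by far the highest (7.73). The next highest weight was 1.52, so the control level in this fit rested largely on 1 array. Igll1 was read by a single probe set, of a type that can cross-hybridise, so it has no value once such probe sets are left out.

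The probe set shared by Vpreb1 and Vpreb2, whose proteins complete the surrogate light chain with lambda5, set the same array apart within the Mef2c-deficient group. Its log2 values were 12.13, 12.00 and 13.81 in Mef2c-deficient replicates 1 to 3, against 13.13, 14.31 and 13.33 in control replicates 1 to 3. Again replicates 1 and 2 lay below every control array and replicate 3 above 2 of them. Kept in a fit of 11793 features, added after the data were seen, it differed by -0.94 (SE 0.56), with a limma adjusted p of 0.286. Without Mef2c-deficient replicate 3 the difference was -1.52 (limma adjusted p = 0.0778). Once each was centred on its own mean over the 6 arrays, the profiles of this probe set and of Igll1 differed by a root mean square of 0.35 in log2. The distances of Igll1 to Vpreb3, Cd79a and Cd79b were 1.44, 1.45 and 1.26. The arrays behind these distances share every technical difference between samples.

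Vpreb3, the VpreB-like gene, was also lower in 2 of the 3 Mef2c-deficient arrays, but not the same 2. Its log2 values were 18.42, 16.97 and 16.85 in Mef2c-deficient replicates 1 to 3, against 18.44, 17.68 and 18.63 in control replicates 1 to 3. Here replicate 1 lay within the control range and replicates 2 and 3 below it, and the means were 17.41 ± 0.87 in Mef2c-deficient and 18.25 ± 0.50 in control cells (SD, n = 3 each). The difference was -0.84 (SE 0.49, 95% interval -1.99 to 0.31), with a limma adjusted p of 0.280. Without Mef2c-deficient replicate 1 it was -1.34 (SE 0.38), with an unadjusted limma p of 0.0119 and an adjusted p of 0.137, and without replicate 3 it was -0.55 (limma adjusted p = 0.446).

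Cd79a, which encodes Ig-alpha, was close to the control level in all 3 Mef2c-deficient arrays. Its log2 values were 18.92, 18.74 and 18.40 in Mef2c-deficient replicates 1 to 3, against 18.34, 17.80 and 18.96 in control replicates 1 to 3. Every Mef2c-deficient value lay within the control range. The difference was 0.32 (SE 0.37, 95% interval -0.54 to 1.17), with a limma adjusted p of 0.545, and 0.46 without Mef2c-deficient replicate 3 (limma adjusted p = 0.416). The means were 18.68 ± 0.26 in Mef2c-deficient and 18.37 ± 0.58 in control cells (SD, n = 3 each).

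Cd79b, which encodes Ig-beta, had log2 values of 19.06, 19.03 and 18.20 in Mef2c-deficient replicates 1 to 3, against 19.22, 19.00 and 18.76 in control replicates 1 to 3. Replicates 1 and 2 lay within the control range and replicate 3 below it, and the means were 18.76 ± 0.49 in Mef2c-deficient and 18.99 ± 0.23 in control cells (SD, n = 3 each). The difference was -0.23 (SE 0.34, 95% interval -1.02 to 0.56), with a limma adjusted p of 0.628. Its sign rested on that array and on the scaling: it was 0.054 without Mef2c-deficient replicate 3 and 0.064 after median centring of the arrays.

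**Figure D1:**
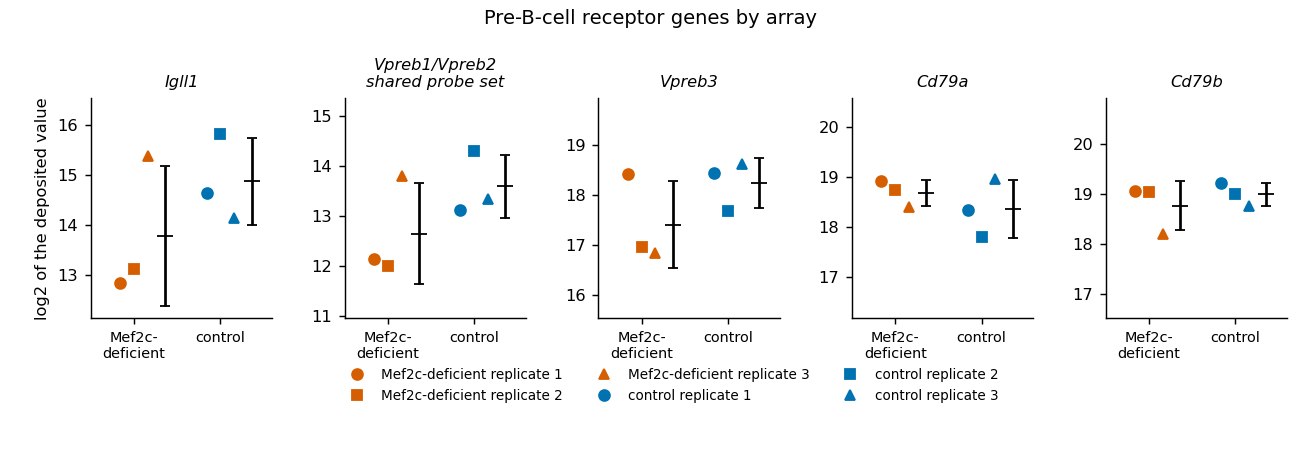
Log2 deposited values (vertical axis) for each gene and of the probe set shared by Vpreb1 and Vpreb2, in 3 Mef2c-deficient (orange) and 3 control arrays (blue), with a symbol for each replicate number and the mean and SD in black; the panels start at different levels but cover equal spans. For Igll1, Mef2c-deficient replicates 1 and 2 lie at 12.84 and 13.11, below the control arrays, and replicate 3 at 15.38 lies among them.

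Of the 4 measured genes, 0 passed a limma adjusted p of 0.05, the share of all 11271 genes tested being 0.0177%. At an unadjusted p under 0.05, 0 of the 4 were lower, against 20.9% of all genes, and 0 were higher, against 5.32%. With at least a 2-fold difference in the values as deposited required as well, 0 were lower, against 14.7%, and 0 higher, against 2.64%. These 2 shares would be smaller with e as the base. The means of 3 of the 4 were lower, against 62.3% of all genes. The methods' t-test also gave 0 of 4, adjusted or not. In 0 of the 4 genes were the groups separate, against 27.1% of all genes with every Mef2c-deficient array lower and 10.6% with every one higher. A p above the threshold does not show that the levels were equal, and the intervals above give what 3 arrays a group can resolve.

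The 4 genes were spread over the range of all genes. Over all genes tested the differences had a median of -0.36 in log2, with quartiles at -0.84 and 0.35. Igll1 lay 0.73 below that median and Vpreb3 0.48 below it, with 14.9% and 25.3% of genes at lower differences. Cd79b lay 0.13 and Cd79a 0.67 above the median, with 55.6% and 73.4% of genes below them. The standard error of Igll1 was larger than that of 94.8% of genes, while that of Cd79a was larger than 48.1%.

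**Figure D2:**
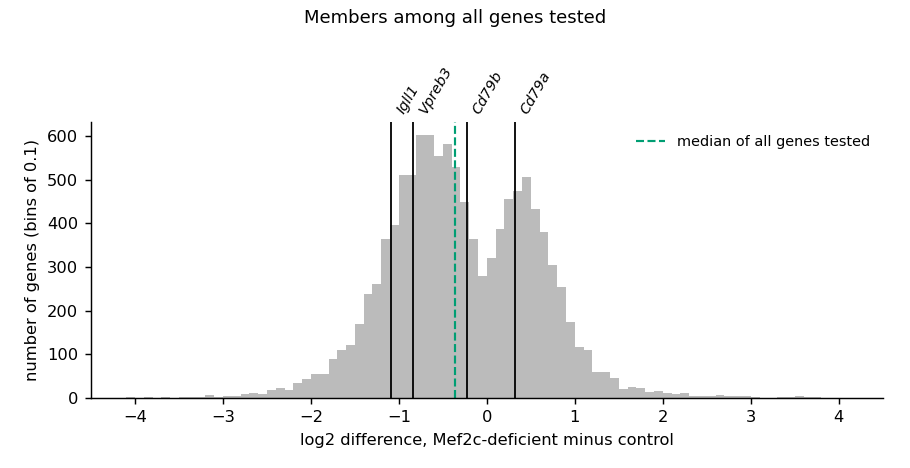
Number of genes (vertical axis, bins of 0.1) by log2 difference, Mef2c-deficient minus control (horizontal axis), for the 11271 genes tested, with the 4 measured genes as black lines and the median of all genes, -0.36, as a dashed green line. Igll1 at -1.09 and Vpreb3 at -0.84 lie left of the median, and Cd79b at -0.23 and Cd79a at 0.32 right of it.

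Setting each array's surrogate light chain signal against its own Cd79 signal removes any scaling common to an array. A scaling that depends on intensity is not removed. The means of Cd79a and Cd79b lay at percentiles 99.6 and 99.7 of all probe sets, and that of Igll1 at 94.9. Relative to the mean of Cd79a and Cd79b, and with the control mean at 0, Igll1 lay at -2.34, -1.96 and 0.90 in Mef2c-deficient replicates 1 to 3, against -0.33, 1.24 and -0.90 in control replicates 1 to 3. The shared VpreB probe set lay at -1.77, -1.79 and 0.60 in Mef2c-deficient arrays, against -0.57, 0.999 and -0.43 in control arrays. The split between replicate 3 and the other Mef2c-deficient arrays was therefore present within arrays as well. Vpreb3 lay at -0.14, -1.48 and -1.02 in Mef2c-deficient arrays, against 0.08, -0.29 and 0.21 in control arrays, where replicate 1 alone overlapped the controls.

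Arrays with the same replicate number deviated together across genes, so differences within numbers are given too. Igll1 differed by -1.80, -2.71 and 1.25 between the Mef2c-deficient and control arrays of numbers 1 to 3, and the shared VpreB probe set by -0.997, -2.31 and 0.474. Vpreb3 differed by -0.02, -0.70 and -1.79, Cd79a by 0.57, 0.94 and -0.56, and Cd79b by -0.16, 0.03 and -0.56. Vpreb3 was the one gene of the 4 with the same sign in all 3 numbers. In number 3 Igll1 was higher and the other 3 genes lower in the Mef2c-deficient array.

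Of 15 measured genes of the pre-B-cell list, 14 had lower means in Mef2c-deficient cells (62.3% of all genes did). Their median log2 difference was -1.09, against -0.36 over all genes. With limma 0 passed the adjusted threshold, and 7 were lower at an unadjusted p under 0.05 (46.7%, against 20.9% of all genes), with 0 higher. Without Mef2c-deficient replicate 3 the median was -0.71, against -0.32 over all genes, and 6 of the 15 were lower (23.7% of all genes in that fit). The smallest p-values belonged to Il7r, the IL-7 receptor gene, Enpep, Ebf1 and Cplx2. The study had named Il7r and Ebf1 from these arrays, so their direction here is not independent evidence. It also reported both as lower by Q-PCR in pre-B cells, which was not examined here.

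Most of this list did not share the array pattern of Igll1. In 2 of the 15 genes, Dntt and Rag2, Mef2c-deficient replicates 1 and 2 lay below every control array while replicate 3 did not. In 8 of the 15 replicate 3 was the lowest of the 6 arrays. The same counts were not made over all genes, and replicate 3 had the widest spread. The counts therefore describe these genes and do not set the list apart from other genes. Dntt encodes terminal transferase and marks pro-B cells. Its log2 values were 11.06, 12.23 and 15.46 in Mef2c-deficient replicates 1 to 3, against 13.50, 15.15 and 14.48 in control replicates 1 to 3. Replicate 3 lay above every control array, where Igll1 lay within the control range. The groups overlapped, and the difference was -1.46 (SE 1.05; limma adjusted p = 0.355), or -2.73 without replicate 3 (limma adjusted p = 0.0573). Dntt and Rag2 were named after their values were seen.

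Among all genes tested outside the members, the 5 nearest to the Igll1 profile were Dsel, 4930509E16Rik, Ankrd49, Gcsh and Mettl9, with root mean square differences of 0.32 to 0.50 in log2 over the 6 arrays (median of all genes 1.18). Their limma adjusted p lay between 0.148 and 0.631. Those nearest to Cd79a were Wdr55, Map3k3, Lzts3, Wbp2 and Rasgrp1, at 0.15 to 0.17 (median of all genes 0.68). Rasgrp1 encodes a Ras exchange factor and Map3k3 a MAP kinase kinase kinase. A near profile here is a likeness over 6 samples.

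The remaining chains of the receptor varied widely. Ighm, the mu heavy chain gene, had log2 values of 6.78, 9.01 and 9.39 in Mef2c-deficient replicates 1 to 3, against 7.91, 12.75 and 14.76 in control replicates 1 to 3. Control replicate 1 lay far below the other control arrays and among the Mef2c-deficient ones. The 6.78 was below the level of the filter on low values, 7.26, and the 7.91 little above it. The probe set is thus a doubtful measure of mu transcript in these arrays. The difference was -3.42 (SE 1.62; limma adjusted p = 0.216), from the 1 probe set annotated to Ighm alone, and -3.91 without Mef2c-deficient replicate 3 (limma adjusted p = 0.183). Iglv1, a lambda light chain variable gene, differed by 0.56 (SE 0.51), and its groups overlapped. For Igk the representative probe set differed by -0.14 (SE 0.46), and by 0.26 without Mef2c-deficient replicate 3. Of the 8 other chains listed, these 3 were measured. With limma 0 passed the adjusted threshold (0.0177% of all genes), and at an unadjusted p under 0.05 0 were lower (20.9% of all genes) and 0 higher (5.32%).

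Transcription factors that act at surrogate light chain and Cd79 genes, or with those that do, were counted from a list. Of 30 listed, 24 were measured, and 19 had lower means in Mef2c-deficient cells (62.3% of all genes did). The median log2 difference was -0.61, against -0.36 over all genes. With limma 0 passed the adjusted threshold, and 8 were lower at an unadjusted p under 0.05 (33.3%, against 20.9% of all genes), with 0 higher. Without Mef2c-deficient replicate 3 the median was -0.28, against -0.32 over all genes, and 8 of the 24 were again lower (23.7% of all genes in that fit). Tcf3 and Ebf1 of this list had been named by the study from these arrays, so their direction here is not independent evidence. The study also reported both as lower by Q-PCR in pre-B cells, which was not examined here.

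The smallest p-values in this list belonged to Tcf12, Lef1, Tcf3 and Ebf1. Tcf3 and Tcf12 encode E proteins, Ebf1 the early B-cell factor that acts with them at Igll1, Vpreb1 and Cd79a, and Lef1 a factor of early B-cell development. Ebf1 had log2 values of 15.21, 15.23 and 14.11 in Mef2c-deficient replicates 1 to 3, against 15.97, 15.94 and 16.10 in control replicates 1 to 3 (limma adjusted p = 0.135). Tcf3 had 16.35, 15.52 and 15.26 in Mef2c-deficient arrays, against 16.88, 16.62 and 17.47 in control arrays. Both genes were lowest in Mef2c-deficient replicate 3, the array in which Igll1 and the VpreB probe set were at the control level. Tcf12 and Lef1 were not. Tcf12 had 14.35, 14.12 and 14.26 in Mef2c-deficient replicates 1 to 3, lowest in replicate 2, and Lef1 had 13.63, 14.13 and 14.09, lowest in replicate 1. The relation of these factors to the receptor genes was not tested. Pax5, which encodes the B-lineage commitment factor that activates Cd79a, had 16.69, 16.33 and 15.25 in Mef2c-deficient arrays, against 16.31, 15.79 and 18.06 in control arrays, and the groups overlapped (limma adjusted p = 0.501).

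Ikaros family factors, which silence Igll1 in small pre-B cells of the mouse, showed no separation. Ikzf1 had log2 values of 16.95, 16.26 and 16.05 in Mef2c-deficient replicates 1 to 3, against 17.10, 16.97 and 16.61 in control replicates 1 to 3. Ikzf3, the Aiolos gene, had 17.78, 18.10 and 16.58 in Mef2c-deficient arrays, against 17.70, 17.80 and 18.24 in control arrays. Ikzf1, Ikzf3 and Pax5 were named for their known roles, after their values were seen.

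Downstream of the receptor, 27 of 37 listed signalling genes were measured and 23 had lower means in Mef2c-deficient cells (62.3% of all genes did). Their median log2 difference was -0.62, against -0.36 over all genes. With limma 0 passed the adjusted threshold, 3 were lower at an unadjusted p under 0.05 (11.1%, against 20.9% of all genes) and 1 was higher (3.70%, against 5.32%). Without Mef2c-deficient replicate 3 the median was -0.30, against -0.32 over all genes. In that fit 4 of the 27 were lower (23.7% of all genes) and 0 higher (7.07% of all genes). The 3 lower genes were Prkcb, a protein kinase C gene (-1.32, SE 0.40), Bcl10, which links that kinase to NF-kB (-0.91, SE 0.30), and Cd72, an inhibitory co-receptor gene (-1.26, SE 0.51). Malt1, the partner of Bcl10, was the higher one (1.16, SE 0.48). Syk, which encodes the first kinase recruited by Ig-alpha and Ig-beta, had 17.16, 16.94 and 15.45 in Mef2c-deficient replicates 1 to 3, against 17.13, 17.32 and 17.34 in control replicates 1 to 3. Its groups overlapped, with Mef2c-deficient replicate 3 the lowest of the 6 arrays. Blnk, the adaptor that Syk phosphorylates, had 16.21, 16.34 and 14.47 in Mef2c-deficient arrays, against 16.76, 16.32 and 16.03 in control arrays, again lowest in replicate 3. Syk and Blnk were named after their values were seen.

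Markers of dividing cells and of other cell types moved across the same arrays, and their part in the results above was not tested. For 23 of 24 listed genes of dividing cells, the median lay at -1.39, -2.79 and -1.87 in Mef2c-deficient replicates 1 to 3 relative to the control mean, against 0.25, 0.05 and -0.17 in control arrays. Of them 20 were lower at an unadjusted limma p under 0.05 (87.0%, against 20.9% of all genes) and 1 higher (4.35%, against 5.32%), and 0 passed the adjusted threshold (0.0177% of all genes). Without Mef2c-deficient replicate 3, 19 were lower (23.7% of all genes in that fit) and 1 higher (7.07%), and 5 passed the adjusted threshold (1.41%). The log2 of their summed deposited values ranged over 17.28 to 18.80 in Mef2c-deficient and 19.46 to 19.74 in control arrays. In 17 of the 23 genes every Mef2c-deficient array lay below the controls (27.1% of all genes did). In 1, Top2a, every one lay above them (10.6% of all genes did), and in 5 the groups overlapped. The control mean of Top2a, 7.23, was below the filter of 7.26. Top2a was thus kept only through its Mef2c-deficient values, and its direction is not read as a rise. Top2a was named after its values were seen.

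Markers of plasmacytoid dendritic cells, which can carry B220 without IgM or CD43, had 16 of 20 genes measured. Their median lay at 0.54, 0.95 and 3.37 in Mef2c-deficient replicates 1 to 3, against -0.47, -0.53 and 0.83 in control arrays, and their summed log2 ranged over 19.55 to 20.89 in Mef2c-deficient and 18.87 to 19.82 in control arrays. The 2 brightest, Spib and Ly6d, are also expressed by B-lineage cells. Siglech, a defining marker named after its values were seen, had 14.41, 16.55 and 18.54 in Mef2c-deficient arrays, against 12.59, 12.51 and 15.53 in control arrays.

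Neutrophil markers (9 of 14 measured) had medians of -0.01, -1.08 and 4.59 in Mef2c-deficient replicates 1 to 3, against -0.10, -1.27 and 1.12 in control arrays, with S100a8 and S100a9 the brightest. Their median log2 difference was 1.29 with all arrays and -0.55 without Mef2c-deficient replicate 3. Their summed log2 ranged over 15.50 to 20.30 in Mef2c-deficient and 15.08 to 17.45 in control arrays. T and NK cell markers (7 of 16) had medians of 0.29, 0.74 and 3.77 in Mef2c-deficient arrays, against -0.36, -0.33 and 0.89 in control arrays, with Cd4 and Klrd1 the brightest. Their summed log2 ranged over 11.78 to 15.71 in Mef2c-deficient and 10.99 to 12.40 in control arrays. Monocyte and macrophage markers (6 of 14) had medians of 0.31, 0.58 and 2.50 in Mef2c-deficient arrays, against -0.11, -0.10 and -0.15 in control arrays, with Cd68 and Lyz2 the brightest. Their summed log2 ranged over 12.34 to 17.51 in Mef2c-deficient and 12.53 to 14.60 in control arrays. These 4 marker lists were highest in Mef2c-deficient replicate 3, and no deposited value is 0, the lowest on any array being 3.33. Tlr7 of the plasmacytoid list and Cd14 of the monocyte list had control means of 7.14 and 7.18, below the filter of 7.26. They were thus kept only through their Mef2c-deficient values, which enter the medians of their lists, and their direction is not read as a rise. Both genes were named after their values were seen. Mature B-cell markers (16 of 19) had medians of -0.14, 0.89 and -0.09 in Mef2c-deficient arrays, against -0.37, 0.05 and 0.20 in control arrays.

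**Figure D3:**
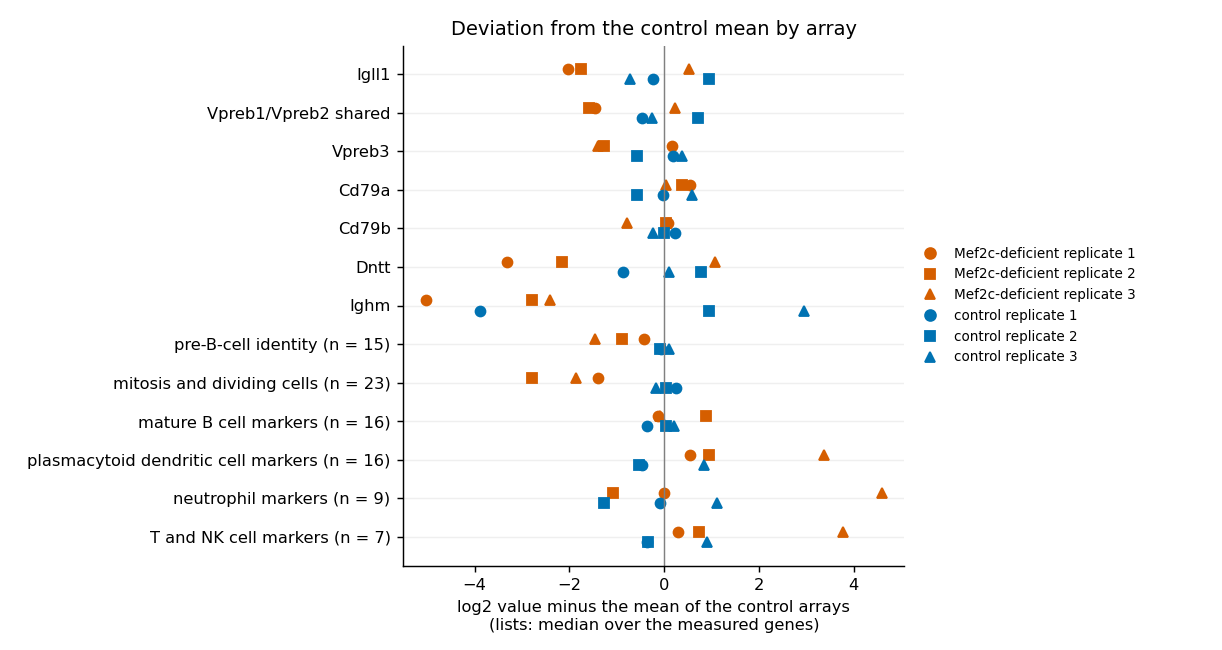
Log2 distance from the control mean (horizontal axis) of the receptor genes, Dntt and Ighm, and the median over the measured genes of each marker list, in 3 Mef2c-deficient (orange) and 3 control arrays (blue), with a symbol for each replicate number. Igll1 lies at -2.03, -1.76 and 0.52 in the Mef2c-deficient arrays, while the dividing-cell list lies at -1.39, -2.79 and -1.87 and the plasmacytoid dendritic cell list at 0.54, 0.95 and 3.37.

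Other scalings moved the differences without moving a gene across the adjusted threshold. Igll1 had log2 differences of -0.74 after quantile normalization, -0.58 after cyclic loess and -0.79 after median centring, and Vpreb3 of -0.86, -0.60 and -0.54. The median of all genes was -0.10, -0.04 and -0.07 under these scalings, each nearer to 0 than the -0.36 of the deposited values. Cd79a had 0.22, 0.49 and 0.61, and Cd79b had -0.34, -0.094 and 0.064. The order of the 4 genes by difference, from Igll1 or Vpreb3 at the low end to Cd79a at the high end, was kept under all 3, with Igll1 and Vpreb3 changing places under 2 of them.

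**Figure D4:**
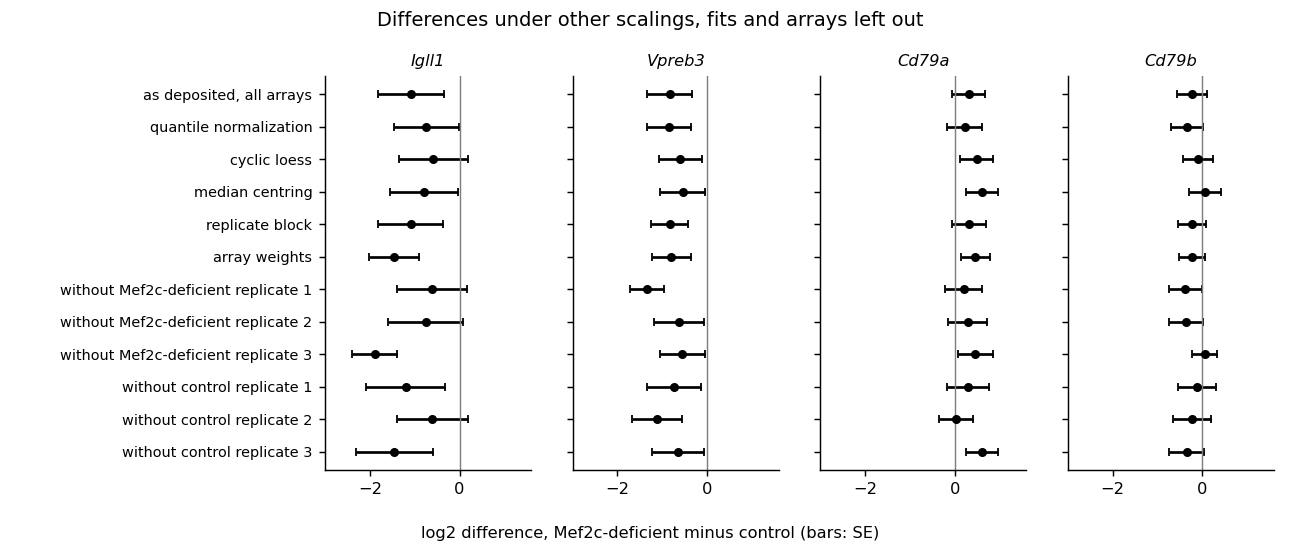
Log2 difference, Mef2c-deficient minus control (horizontal axis), with its SE as a bar, for 4 genes under other scalings and fits and with each array left out in turn (rows). Igll1 ranges from -1.89 without Mef2c-deficient replicate 3 to -0.58 after cyclic loess, and Cd79b changes sign without that array (0.054) and after median centring (0.064).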

How the data were processed

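RNA of sorted pre-B cells was measured on 6 Affymetrix Mouse Genome arrays. The authors background adjusted, quantile normalized and summarised the arrays by robust multiarray averaging, used limma, and deposited linear intensities of 23913 probe sets. Versions of their tools are unknown here. Their exclusion of probes by detection call was not repeated. The highest value is 21.03 in log2, and 2865 of 143478 values lie above the range of a 16-bit scanner. In natural log units the highest is 14.58, which would lie within that range as a log2 value. This makes e the likelier base, but the base is not stated.

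Log2 of each deposited intensity was taken without an offset. The platform annotation named the probe sets and can be old; 17539 of 17689 single-symbol probe sets matched a RefSeq gene identifier. Control probe sets and those with several symbols (524) or none (5675) were left out. Probe sets with a mean above the 40th percentile (log2 of 7.26) were kept, and a gene was represented by its brightest, leaving 11271 genes. Groups followed the genotype labels and were compared by two-sided tests from lmFit and eBayes (limma 3.58.1, R 4.3.3) with Benjamini-Hochberg adjustment over all genes and a threshold of 0.05. The fit was tested on simulated data. Precision is limited by there being 3 arrays a group.

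The members and lists were chosen with earlier results of these data known. Named genes are the members, the 4 smallest p-values and 2 brightest markers of a list as far as the text needs them, the 5 nearest profiles, and those said to be named after their values were seen. Same-numbered arrays deviated together from their group means (correlations across genes of 0.348, 0.226 and 0.373, against -0.309 to 0.129 for other pairs). This, not the labels, is the source of the pairing. Alternatives covered filters, scalings, an offset of 16, variance models, array weights, the methods' t-test, probe set rules, a replicate block and leaving out each array. Promoter windows are from RefSeq (GRCm38.p6).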

Additional observations from a re-analysis of the deposited data

Results flagged for a closer look

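The signal of bioB, a bacterial spike-in that controls hybridisation and takes no part in the comparisons above, was 1.75 higher in log2 in Mef2c-deficient than in control arrays (mean of 6 probe sets). It lay at 2.63, 1.54 and 1.07 in Mef2c-deficient replicates 1 to 3 relative to the control mean, against 0.03, 0.15 and -0.17 in control arrays. It was flagged as a signal outside the measured genes that was above the level of the control arrays, and its relation to the receptor genes was not tested. The other spike-ins were higher in Mef2c-deficient arrays too. The group differences were 1.51 to 1.57 over 4 probe sets of bioC, 0.49 to 1.13 over 4 of bioD, 0.21 for cre, and 0.40 to 1.15 over 5 probe sets of Bacillus transcripts.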

How the results depend on the processing

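Of the 4 genes, 0 passed an adjusted p of 0.05 (limma, or the methods' t-test in its place) under any of the alternatives run, 20 for Igll1 and 21 for each other gene. Igll1 and Vpreb3 kept a negative and Cd79a a positive difference throughout. Cd79b was negative in 19 and positive in 2, at 0.064 after median centring and 0.054 without Mef2c-deficient replicate 3. With single arrays left out, the differences ranged from -1.89 to -0.61 for Igll1, -1.34 to -0.55 for Vpreb3, 0.03 to 0.61 for Cd79a and -0.38 to 0.054 for Cd79b. The number of the 4 genes lower at an unadjusted p under 0.05 was 1 with array weights (Igll1), where 2940 of all 11271 genes were. It was 0 to 1 with an array left out, where 1392 to 2668 of all genes were. With the replicate block the differences stayed at -1.09, -0.84, 0.32 and -0.23 for Igll1, Vpreb3, Cd79a and Cd79b, with limma adjusted p of 0.307, 0.208, 0.547 and 0.584, and no call changed. Over all genes, 2 passed the adjusted threshold, against 1154 with array weights, 159 without Mef2c-deficient replicate 3, 12 without replicate 1, 1 without replicate 2, and 0 under the 3 other scalings, with the block, in the methods' t-test or without any control array; the cause was not tested.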
